A study of Mus musculus with 8 samples.

Results

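The 34 genes described here carry glucose into the cell, break it down to pyruvate and lactate, gate the entry of pyruvate into mitochondria, or run the pentose phosphate pathway. They were chosen by gene symbol from pathway knowledge, by step and isoform, with earlier results of these data known. All 34 were found among the 22520 protein-coding genes of the table. The libraries came from mouse liver endothelial cells (ECs) of a study on glucose homeostasis, with 4 libraries of WT mice and 4 libraries of LRP1 eKO mice, in which the endocytic receptor Lrp1 was deleted from ECs. By the labels, the mice were C57BL/6 at postnatal day 14. By the study's methods, both genotypes carried floxed Lrp1 alleles (Lrp1 f/f), and LRP1 eKO mice (LRP1 KO in the labels) also carried 1 copy of Cdh5-CreER, a tamoxifen-inducible Cre driven by the promoter of the endothelial cadherin gene, which their WT littermates lacked. The presence of CreER and the loss of Lrp1 therefore cannot be told apart. Microvascular ECs were captured with beads carrying an antibody against the surface protein PECAM1. Whether each library came from 1 mouse is not given in the sources used here, so p-values measure the spread between these libraries, which may be technical.

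Glycolysis converts glucose to pyruvate in the cytosol. Most of its steps are catalysed by families of isoenzymes from separate genes, which differ in tissue, kinetics and regulation. Lactate dehydrogenase interconverts pyruvate and lactate, and pyruvate dehydrogenase kinases (PDKs) restrain the oxidation of pyruvate in mitochondria. ECs are known to draw much of their ATP from glycolysis even where oxygen is present, and Pfkfb3 is known as an activator of this flux in vessel growth. Many glycolytic genes are known targets of the hypoxia-inducible factors and of Myc.

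The values are a quantile-normalized signal per gene, whose unit before normalization is not stated. Levels of different genes are therefore compared only roughly, as for the cell type markers below. The summed signal was between 484445 and 485947 in every library, because normalization fixed it, and the depth is unknown. Lrp1, on chromosome 10 of GRCm38 from 127538161 to 127621148, had a signal from 56.2 to 85.1 in WT and from 2.16 to 6.01 in LRP1 eKO libraries (log2 fold change -3.66, standard error (SE) 0.23, adjusted p in limma = 2.8e-06). WT replicate 4 and LRP1 eKO replicate 2 stood apart from their groups, being farthest from the group median for 61.7% and 37.2% of the genes tested. The defining endothelial markers were low. Cdh5 had means of 1.86 (WT) and 3.70 (LRP1 eKO), and Pecam1 2.09 and 3.02, while Acta2, the smooth muscle actin also made by activated stellate cells and myofibroblasts, averaged 811 and 1066, and Col1a1, a fibrillar collagen gene, averaged 389 and 444.5. The longest coding transcripts of these 4 genes span from 2035 to 5930 bases, a range far narrower than that of the signals. Endothelial markers were thus low beside Acta2 and Col1a1, while the mean Lrp1 signal in LRP1 eKO libraries was 6.74% of that in WT. How pure the preparations were, or whether the cells had changed after isolation, was not tested. A pure EC preparation is not assumed, and the libraries are called liver EC libraries only after their labels. In bulk samples, fewer cells of a type and less RNA per cell cannot be told apart.

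Markers of other cell types also moved with genotype. The summed signal of 8 skeletal muscle genes was from 37.1 to 61.2 in WT and from 9.10 to 10.6 in LRP1 eKO libraries, although Ckm, the muscle creatine kinase gene, averaged only 0.134 and 0.0297, and all 6 genes of the list that were tested were lower. The sum of 8 hepatocyte genes was from 73.1 to 111 in WT and from 27.8 to 36.25 in LRP1 eKO libraries, with all 4 tested genes lower. The sum of 11 macrophage and Kupffer cell genes was from 108 to 212 in WT libraries and 673, 51.3, 617 and 363 in LRP1 eKO replicates 1 to 4, so that LRP1 eKO replicate 2 lay below the WT range and the other three lay above it, and 1 of its 8 tested genes was called higher. The 10 endothelial genes summed to between 33.9 and 38.7 in WT and between 41.9 and 63.6 in LRP1 eKO libraries. Of the 7 tested, 2 (Cdh5 and Eng) were higher and 5 were not called. Eng averaged 12.4 (WT) and 24.3 (LRP1 eKO), so this sum depends much on Eng, and Cldn5, too low to be tested, averaged 1.08 and 0.673. The 7 smooth muscle and stellate genes summed to between 1838 and 1990 in WT and between 2262 and 2430 in LRP1 eKO libraries, with 2 of 5 tested genes higher. The liver sinusoidal endothelial genes summed to between 7.84 and 11.7 in WT libraries. In LRP1 eKO replicates 1 to 4 their sum was 33.0, 8.38, 29.3 and 20.0, so that only replicate 2 lay within the WT range. The other LRP1 eKO libraries lay above it, and 1 of the 4 tested genes was called higher. Erythroid genes overlapped between genotypes (24.6 to 42.6 and 14.6 to 24.7), with the 1 tested gene lower. Of 6 lymphocyte genes, 2 were at 0 in every library and the sum never exceeded 0.191. The part of these cell types in the results below was not tested.

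**Figure D1:**
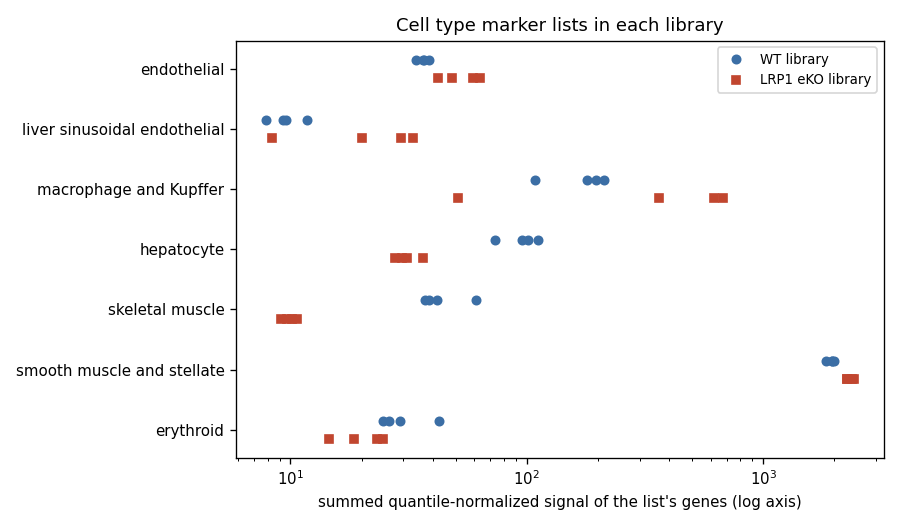
Summed quantile-normalized signal (log axis) of the genes of each cell type list except lymphocytes in the 4 WT libraries (circles) and the 4 LRP1 eKO libraries (squares). Skeletal muscle and hepatocyte lists were lower in every LRP1 eKO library, and the macrophage list ranged from 51.3 to 673 among LRP1 eKO libraries.

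All 34 genes had a signal of at least 1 in every library, the lowest being 1.54, and all were tested. On the log2(signal + 1) scale and with limma's Benjamini-Hochberg adjustment over 11391 genes, 18 of the 34 genes (52.9%) were higher and 9 (26.5%) were lower in LRP1 eKO libraries at an adjusted p below 0.05. Over all genes tested, 19.0% were higher and 22.2% were lower, and among the 8318 genes with a mean signal of at least 5 these shares were 20.6% and 22.7%, so that the share of lower genes in the pathway was close to that of the table and the share of higher genes was above it. The 34 genes were chosen with earlier results of these data known, so these shares describe the set and do not test it. With 1 library left out, between 15 and 18 genes were higher and between 6 and 9 were lower. The lowest count of lower genes, 6, was found without WT replicate 3 and without LRP1 eKO replicate 4. The median log2 fold change of the 34 genes was 0.17, against -0.009 over all genes tested. The changes were moderate. With the 2-fold threshold that the study added to its adjusted p, 0 of the 34 genes passed in limma, against 1.66% of all genes tested in either direction, although 27 of the 34 had an unadjusted p under 0.05. No value overlapped between genotypes for 17 genes that were higher and 8 that were lower, against 20.0% and 22.5% of all genes tested.

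**Figure D2:**
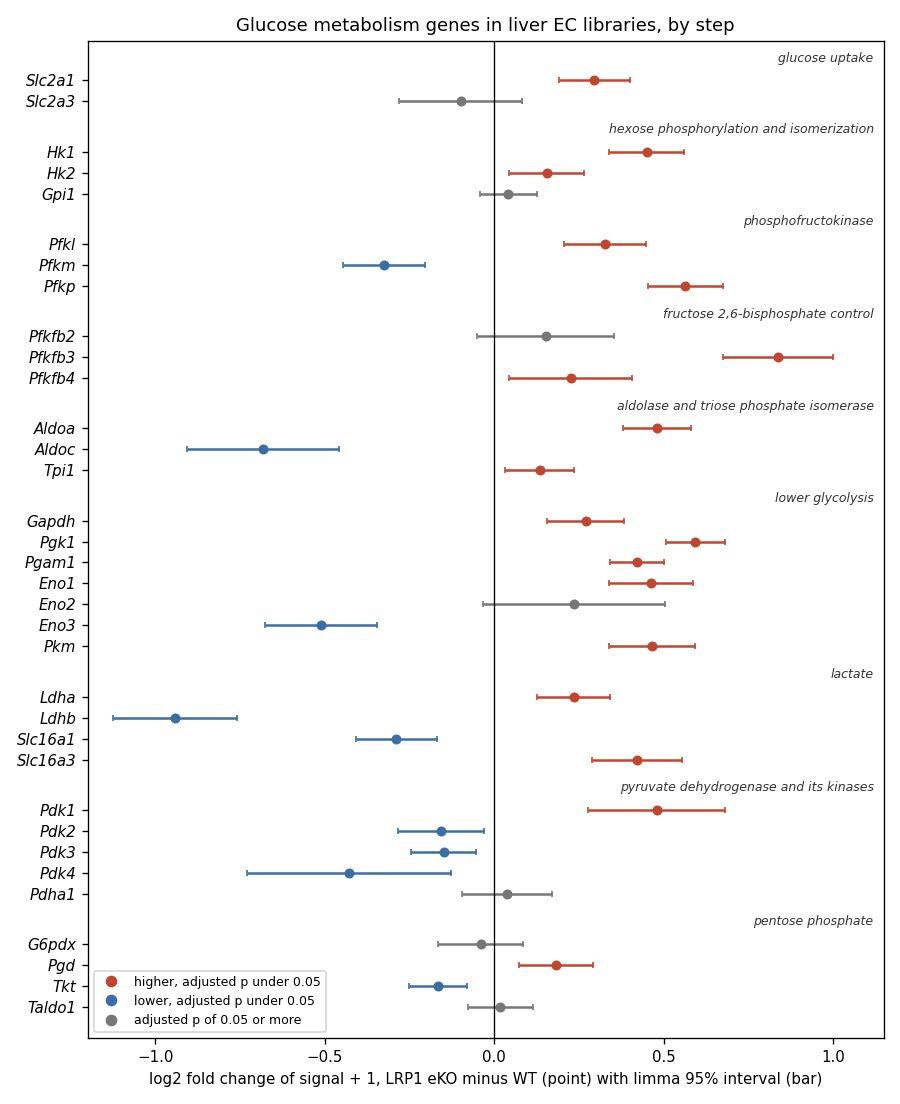
Log2 fold change of signal + 1 (LRP1 eKO minus WT, n = 4 each) of the 34 genes with limma's 95% interval, ordered by step and coloured by the limma call. The genes from Gapdh to Pkm lay mostly to the right, with Pgk1 at 0.59 and Eno3 at -0.51, and the lactate genes lay on both sides, with Ldhb at -0.94.

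The promoters of the 4 genes with the largest changes (Ldhb, Pfkfb3, Aldoc and Pgk1), and of Ldha, which moved opposite to Ldhb, are shown in every window the table holds for them, with the core of the hypoxia response element, ACGTG, in capitals, read on both strands. A forkhead motif that is described after the sequences is in capitals too. RefSeq sequence on GRCm38.p6 was found for 33 of the 34 genes in windows from 250 bases before to 50 after an annotated start, some genes having several. Only the 250 upstream bases are printed, 5′ to 3′ on the strand of the gene. Where ACGTG lies inside CACGTG, the E-box bound by Myc and related factors, the 6 bases are in capitals and both strands match at 1 site.
Pgk1, chrX:106186850-106187099, plus strand: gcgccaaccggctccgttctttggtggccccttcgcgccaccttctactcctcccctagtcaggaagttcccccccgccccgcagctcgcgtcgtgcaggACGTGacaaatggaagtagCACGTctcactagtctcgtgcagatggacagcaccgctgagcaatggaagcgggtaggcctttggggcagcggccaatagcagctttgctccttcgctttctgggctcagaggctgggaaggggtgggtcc
Pfkfb3, chr2:11502091-11502340, minus strand: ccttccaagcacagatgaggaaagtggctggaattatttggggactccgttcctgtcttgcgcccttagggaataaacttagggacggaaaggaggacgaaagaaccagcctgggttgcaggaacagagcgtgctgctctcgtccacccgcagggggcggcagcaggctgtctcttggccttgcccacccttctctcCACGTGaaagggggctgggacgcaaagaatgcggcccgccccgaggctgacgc
Pfkfb3, chr2:11553930-11554179, minus strand: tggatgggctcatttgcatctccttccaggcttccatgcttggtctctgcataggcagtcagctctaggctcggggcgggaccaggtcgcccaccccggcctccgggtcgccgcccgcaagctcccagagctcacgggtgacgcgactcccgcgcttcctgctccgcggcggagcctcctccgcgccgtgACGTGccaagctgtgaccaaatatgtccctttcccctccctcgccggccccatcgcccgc
Aldoc, chr11:78322823-78323072, plus strand: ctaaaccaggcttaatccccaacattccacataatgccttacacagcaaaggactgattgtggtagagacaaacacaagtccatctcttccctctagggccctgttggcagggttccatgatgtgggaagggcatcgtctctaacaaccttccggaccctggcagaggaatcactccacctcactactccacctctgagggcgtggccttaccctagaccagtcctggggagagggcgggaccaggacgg
Aldoc, chr11:78323948-78324197, plus strand: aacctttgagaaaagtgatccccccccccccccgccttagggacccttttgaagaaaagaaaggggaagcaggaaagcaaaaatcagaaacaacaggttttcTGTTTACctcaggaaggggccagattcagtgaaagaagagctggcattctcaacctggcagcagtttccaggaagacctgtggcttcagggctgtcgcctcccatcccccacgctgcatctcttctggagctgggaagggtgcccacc
Ldha, chr7:46845554-46845803, plus strand: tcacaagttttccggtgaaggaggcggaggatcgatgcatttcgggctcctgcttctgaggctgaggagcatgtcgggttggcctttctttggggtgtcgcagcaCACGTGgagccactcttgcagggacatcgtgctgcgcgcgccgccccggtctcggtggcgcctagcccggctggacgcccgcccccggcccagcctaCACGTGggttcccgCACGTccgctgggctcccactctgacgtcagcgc
Ldha, chr7:46846832-46847081, plus strand: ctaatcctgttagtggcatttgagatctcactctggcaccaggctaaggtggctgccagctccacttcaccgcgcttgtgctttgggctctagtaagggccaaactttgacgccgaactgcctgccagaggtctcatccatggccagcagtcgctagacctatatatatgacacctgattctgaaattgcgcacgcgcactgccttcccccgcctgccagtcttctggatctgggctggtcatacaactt
Ldhb, chr6:142507958-142508207, minus strand: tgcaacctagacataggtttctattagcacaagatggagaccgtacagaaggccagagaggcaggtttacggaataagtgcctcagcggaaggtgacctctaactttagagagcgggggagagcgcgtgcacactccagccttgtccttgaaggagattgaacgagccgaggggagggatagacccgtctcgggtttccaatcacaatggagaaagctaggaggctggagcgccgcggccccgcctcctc
The Pgk1 window holds 2 sites, which begin 150 and 131 bases before the start. The 2 Pfkfb3 windows hold 1 each, an E-box in the one at 11502091. Of the 2 Ldha windows, the one at 46845554, whose RefSeq start is 35 bases from the nearest GENCODE start, holds 3 sites at 145, 48 and 34 bases before the start, the first 2 of them E-boxes. In the other Ldha window, whose start is also a GENCODE start, and in the Ldhb window ACGTG does not occur. Neither Aldoc stretch holds ACGTG before the start, although the whole window at 78322823, with the 50 bases after the start, holds 1 match, and the capitals in the stretch at 78323948 are the forkhead motif. ACGTG was in a window of 18 of the 33 genes (54.5%), against 21.8% of the 27025 genes in the table of promoters and 2516 of the 8379 tested genes with a window. A gene with several windows has more chances of a match. By window, ACGTG was in 44.0% of the 50 windows of these genes and in 19.6% of all 32851 windows. It was in a window of 11 of the 18 genes that were higher, of 5 of the 9 that were lower and of 2 of the 6 that did not pass the test. The forkhead motif TGTTTAC, read on both strands, was in a window of 1 of the 33 genes (3.03%), Aldoc. The share was 3.03% of the tested genes with a window and 4.05% of all genes. A match is a description of letters and not a binding site.

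Glucose uptake and phosphorylation. Slc2a1 encodes GLUT1, the main endothelial glucose transporter, and its signals were 48.6, 48.3, 48.55 and 44.6 in WT replicates 1 to 4 and 59.8, 55.4, 60.45 and 58.4 in LRP1 eKO replicates 1 to 4. The genotypes did not overlap, and the log2 fold change was 0.30 (SE 0.047, adjusted p in limma = 0.001). Slc2a3, which encodes the high-affinity transporter GLUT3, had means of 41.0 ± 5.05 (WT) and 38.0 ± 0.617 (LRP1 eKO) (SD, n = 4 each), and its difference of -0.098 did not pass the test (95% interval -0.28 to 0.083, adjusted p in limma = 0.35). Its WT spread came from WT replicate 4, at 33.5 against 43.0 to 44.2 in the other three, and without that library Slc2a3 passed the test as lower (-0.19, adjusted p in limma = 0.0016). Hk1, the broadly expressed hexokinase that traps glucose as glucose phosphate, went from between 17.6 and 20.02 in WT up to between 25.5 and 26.85 in LRP1 eKO libraries (log2 fold change 0.45, SE 0.049, adjusted p in limma = 1.1e-04). Hk2, the insulin- and hypoxia-responsive hexokinase, differed less, with 11.4 ± 0.472 and 12.8 ± 0.437 (log2 fold change 0.15, adjusted p in limma = 0.032). Its call was lost without any 1 of the libraries other than WT replicate 4 and LRP1 eKO replicate 2 (adjusted p in limma from 0.067 to 0.088). Gpi1, the glucose phosphate isomerase, had nearly equal means of 312 and 321 (log2 fold change 0.042, 95% interval -0.042 to 0.13, adjusted p in limma = 0.40).

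The phosphofructokinase step. Phosphofructokinase commits the sugar to glycolysis, and its liver, muscle and platelet subunits come from Pfkl, Pfkm and Pfkp. Pfkp signals were 13.0, 13.3, 14.5 and 14.4 in WT and 20.4, 21.3, 21.1 and 20.7 in LRP1 eKO replicates 1 to 4, which gave a log2 fold change of 0.56 (SE 0.050, adjusted p in limma = 2.6e-05). Pfkl rose from 26.6 ± 1.37 to 33.6 ± 1.77 (SD, n = 4 each, log2 fold change 0.33, adjusted p in limma = 0.0013). Pfkm fell, from between 15.1 and 16.4 in WT to between 11.5 and 13.2 in LRP1 eKO libraries (log2 fold change -0.32, SE 0.054, adjusted p in limma = 0.0013). The 3 subunits had no overlap between genotypes, and the muscle subunit went against the other two. The skeletal muscle markers were lower in the same libraries, and their part in the fall of Pfkm was not tested.

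The PFKFB enzymes make and degrade the sugar bisphosphate that activates phosphofructokinase. Pfkfb3, on chromosome 2 from 11471433 to 11554077, showed the largest rise of the 34 genes. Its signals were 9.42, 9.67, 8.85 and 7.80 in WT replicates 1 to 4 and 16.5, 18.3, 16.3 and 15.8 in LRP1 eKO replicates 1 to 4. The lowest LRP1 eKO library was well above the highest WT library, the mean was 87.3% higher, and the log2 fold change was 0.84 (SE 0.073, adjusted p in limma = 2.3e-05). Pfkfb4 was low, at 1.62 ± 0.124 and 2.08 ± 0.303 (SD, n = 4 each), and its difference of 0.23 was near the threshold (adjusted p in limma = 0.048), with overlapping libraries. It was not called without WT replicate 1, 2 or 3, nor without LRP1 eKO replicate 2 or 3 (adjusted p in limma from 0.089 to 0.13). Pfkfb2 did not pass the test, with a log2 fold change of 0.15 (95% interval -0.052 to 0.36, adjusted p in limma = 0.20).

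From aldolase to pyruvate. Aldolase splits the sugar into trioses. Aldoa, the aldolase of muscle and most other tissues (chromosome 7, 126795234 to 126800751), had signals of 638, 621, 611 and 611 in WT and 841, 924, 832 and 867 in LRP1 eKO replicates 1 to 4, a log2 fold change of 0.48 (SE 0.045, adjusted p in limma = 3.7e-05). Aldoc, the isoform best known from brain (chromosome 11, 78322968 to 78327781), moved the other way. Its signals were 12.2, 13.3, 13.5 and 15.7 in WT and 8.085, 9.34, 6.64 and 8.60 in LRP1 eKO replicates 1 to 4, so that the highest LRP1 eKO library was below the lowest WT library (log2 fold change -0.68, SE 0.10, adjusted p in limma = 6.4e-04). Tpi1, which interconverts the trioses, averaged 280 and 307.5, a log2 fold change of 0.13 (adjusted p in limma = 0.038). The call of Tpi1 was lost without any 1 of the libraries other than WT replicate 4 (adjusted p in limma from 0.054 to 0.10).

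In the lower part of glycolysis, 5 of 7 genes rose, 1 fell and 1 did not pass the test, with a median log2 fold change of 0.42. Pgk1, the phosphoglycerate kinase of the first ATP-yielding step (chromosome X, 106187100 to 106203699), had the smallest adjusted p of the 34 genes. Its signals were 225, 227, 237.5 and 219.9 in WT replicates 1 to 4 and 349, 346.5, 337 and 342 in LRP1 eKO replicates 1 to 4, and the spread within each genotype was small beside the gap between them (log2 fold change 0.59, SE 0.039, adjusted p in limma = 4.0e-06). Pgam1, a phosphoglycerate mutase, rose from 221 ± 2.86 to 296 ± 6.37 (SD, n = 4 each, log2 fold change 0.42, adjusted p in limma = 2.1e-05). Eno1, the enolase found in most tissues, went from between 469 and 486 to between 615.5 and 729 (log2 fold change 0.46, adjusted p in limma = 1.9e-04). Pkm, the pyruvate kinase gene, whose M1 and M2 splice forms share 1 value in the table, went from between 419 and 450 to between 563 and 669 (log2 fold change 0.47, adjusted p in limma = 2.1e-04). Gapdh, the reference gene of the study's real-time PCR, had signals of 1614, 1652, 1710 and 1558 in WT and 2050, 2001, 2001 and 1832 in LRP1 eKO replicates 1 to 4. The genotypes did not overlap for Gapdh, whose mean was 20.7% higher in LRP1 eKO libraries (log2 fold change 0.27, SE 0.051, adjusted p in limma = 0.0025).

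The remaining enolases differed from Eno1. Eno3, the enolase of striated muscle (chromosome 11, 70657202 to 70662513), was between 15.5 and 17.0 in WT and between 9.43 and 12.1 in LRP1 eKO libraries (log2 fold change -0.51, SE 0.074, adjusted p in limma = 5.9e-04). Eno3 fell with the skeletal muscle markers, and among the additional isoforms Pgam2, the muscle mutase and itself 1 of those markers, fell from 5.04 to 3.01 on average (log2 fold change -0.59, adjusted p in limma = 4.5e-04). Eno2, the enolase of neurons and endocrine cells, averaged 14.45 ± 1.58 and 17.3 ± 2.99 (SD, n = 4 each) and did not pass the test (log2 fold change 0.23, adjusted p in limma = 0.14). Without LRP1 eKO replicate 1, the lowest of its group at 13.35, Eno2 was higher by 0.35 (adjusted p in limma = 0.021).

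Some of these values may include reads of other genes with shared sequence, in most cases copies of the same gene. When the coding transcripts in GENCODE M21 were cut into every run of 50 bases, 68.0% of the Pgk1 runs, 58.4% of the Gapdh runs, 49.5% of the Eno1 runs and 41.5% of the Pgam1 runs also occurred in transcripts of other genes, mostly processed pseudogenes, and for Eno1 the nearly identical Eno1b. The share was 23.7% for Pkm, 22.9% for Pfkfb2, 21.0% for Ldhb and 18.6% for Gpi1, and at most 10.7% for each of the other 26 genes. The Pfkfb2 runs were shared with 1 other gene, Gm29427, which is not annotated as a processed pseudogene. How the authors assigned such reads is not given in the sources used here, so the values of these 8 genes are less certain than those of Pfkp, Hk1, Aldoc or Slc16a3, none of whose runs were shared.

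Lactate. Lactate dehydrogenase is a tetramer of subunits from Ldha, whose enzyme favours lactate formation, and Ldhb, whose enzyme is best known from oxidative tissues such as the heart. Ldhb (chromosome 6, 142490249 to 142507957) had the largest decrease of the 34 genes. Its signals were 299.9, 292, 299 and 341 in WT replicates 1 to 4 and 169, 136, 177 and 158 in LRP1 eKO replicates 1 to 4. Every LRP1 eKO library was far below every WT library, the mean fell by 48.0%, and the log2 fold change was -0.94 (SE 0.082, adjusted p in limma = 2.4e-05). Ldha, on chromosome 7 from 46841475 to 46855627, went the other way. Its signals were 459.9, 466, 474 and 509.5 in WT and 548, 598, 548 and 554 in LRP1 eKO replicates 1 to 4, with no overlap (log2 fold change 0.23, SE 0.048, adjusted p in limma = 0.0041).

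Lactate crosses the membrane through monocarboxylate transporters. Slc16a3 encodes MCT4, best known for lactate export from glycolytic cells, and its signals were 30.7, 34.35, 34.45 and 34.1 in WT and 49.1, 44.4, 45.0 and 41.9 in LRP1 eKO replicates 1 to 4 (log2 fold change 0.42, SE 0.059, adjusted p in limma = 4.9e-04). Slc16a1 encodes MCT1, which carries lactate in either direction, and its signals were 23.3, 22.4, 22.4 and 20.4 in WT and 16.9, 18.1, 18.0 and 18.7 in LRP1 eKO replicates 1 to 4 (log2 fold change -0.29, SE 0.054, adjusted p in limma = 0.0025). Neither transporter overlapped between genotypes, so that in both pairs of lactate genes 1 member rose and 1 fell.

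**Figure D3:**
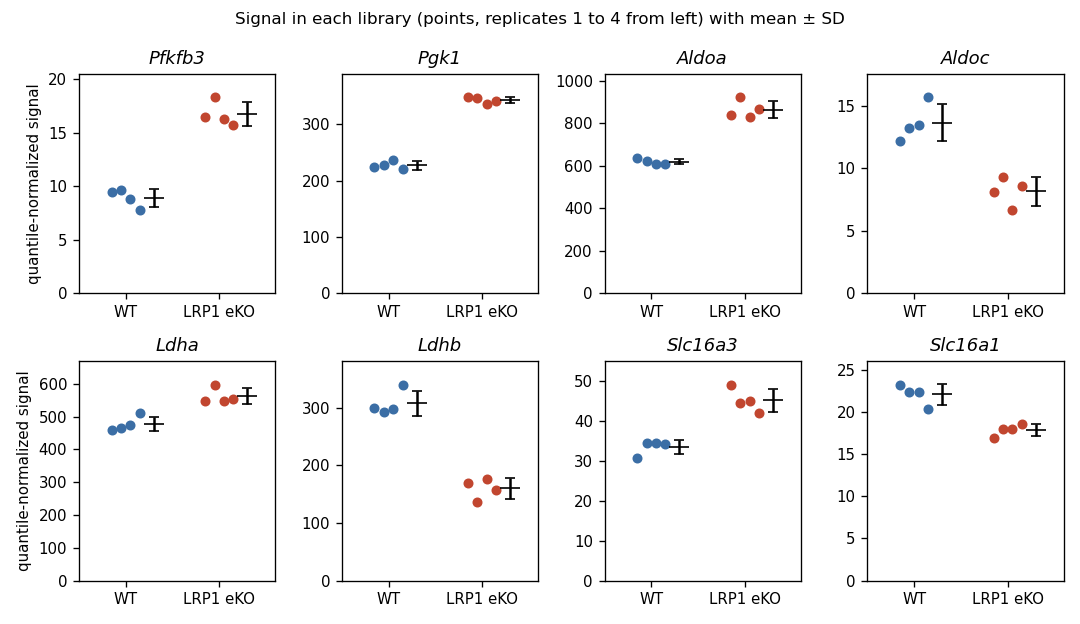
Quantile-normalized signal of 8 genes in each library (points, replicates 1 to 4 from left in each genotype) with the mean and SD of 4 libraries beside them, each axis starting at 0. Pfkfb3, Pgk1, Aldoa, Ldha and Slc16a3 were higher and Aldoc, Ldhb and Slc16a1 were lower in every LRP1 eKO library than in every WT library.

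Pyruvate dehydrogenase and its kinases. The 4 PDKs phosphorylate and inhibit pyruvate dehydrogenase. Pdk1, the kinase known to respond to hypoxia, had signals of 9.99, 9.80, 11.8 and 8.54 in WT and 14.5, 13.8, 15.9 and 13.2 in LRP1 eKO replicates 1 to 4 (log2 fold change 0.48, SE 0.090, adjusted p in limma = 0.0025). The other three were lower. Pdk4, known to be induced by fasting and to be a target of FoxO factors and PPARs, had means of 13.6 ± 1.69 (WT) and 9.96 ± 1.93 (LRP1 eKO) (SD, n = 4 each), and the genotypes overlapped, since WT replicate 4 was at 11.15 and LRP1 eKO replicate 3 at 11.6 (log2 fold change -0.43, adjusted p in limma = 0.029). Pdk3 differed by -0.15 (adjusted p in limma = 0.020) and Pdk2 by -0.16 (adjusted p in limma = 0.048), both without overlap. These 3 calls were fragile. Pdk4 was not called without WT replicate 1, 2 or 3, nor without LRP1 eKO replicate 4 (adjusted p in limma from 0.054 to 0.072), Pdk3 without WT replicate 3 or LRP1 eKO replicate 2 or 4 (0.050 to 0.059), and Pdk2 without any 1 library except LRP1 eKO replicate 2 (0.055 to 0.13). Pdha1, the catalytic subunit that the PDKs act on, averaged 72.0 and 73.9, with a log2 fold change of 0.038 (95% interval -0.096 to 0.17, adjusted p in limma = 0.63).

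Pentose phosphate genes. This pathway branches off after hexokinase and yields NADPH and ribose phosphate. G6pdx, its entry enzyme, had means of 42.4 ± 2.48 (WT) and 41.2 ± 2.00 (LRP1 eKO) (SD, n = 4 each, log2 fold change -0.040, 95% interval -0.17 to 0.084, adjusted p in limma = 0.58). Pgd, the next dehydrogenase that yields NADPH, rose from between 67.2 and 72.6 to between 75.2 and 85.2 (log2 fold change 0.18, adjusted p in limma = 0.015). Tkt, the transketolase of the non-oxidative branch, fell from between 66.1 and 69.3 to between 59.0 and 62.5 (log2 fold change -0.17, adjusted p in limma = 0.008). Taldo1, the transaldolase, averaged 281 and 285 (log2 fold change 0.018, 95% interval -0.077 to 0.11, adjusted p in limma = 0.75). The log2 fold changes of the 4 genes were from -0.17 to 0.18.

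Because a ratio of 2 genes within a library removes any scale shared by them, the isoform genes were also compared as log2 ratios of signal + 1 in each library, for 10 pairs. The level of a ratio can depend on transcript length, and only its difference between genotypes is read. In 9 of the 10 pairs the genotypes were apart, which by exact permutation (two-sided) gave p = 0.029, the lower limit for 4 libraries against 4 (0.032 adjusted over the 10 pairs). With a pseudocount of 5 this held for 8 pairs. In Ldhb to Ldha, Aldoc to Aldoa, Slc16a3 to Slc16a1, Pfkm to Pfkl and Pdk1 to Pdk2, the genes already moved oppositely without overlap. The separation of those ratios was thus fixed in advance and adds no support. The share over other gene pairs was not computed, while 42.6% of all single genes tested did not overlap. The log2 ratio of Ldhb to Ldha was -0.62, -0.67, -0.67 and -0.58 in WT and -1.69, -2.13, -1.63 and -1.81 in LRP1 eKO replicates 1 to 4, a difference of -1.18 (SE 0.11). The ratio of Aldoc to Aldoa differed by -1.16 (SE 0.11), and that of Slc16a3 to Slc16a1 by 0.71 (SE 0.10). For Pfkm to Pfkl the difference was -0.65 (SE 0.037), and the 4 LRP1 eKO libraries lay within -1.38 to -1.35. Pdk1 to Pdk2 differed by 0.64, Pfkfb4 to Pfkfb3 by -0.61, Slc2a3 to Slc2a1 by -0.39, Hk2 to Hk1 by -0.30 and Pfkp to Pfkl by 0.24, which with a pseudocount of 5 was 0.17 and no longer without overlap (exact permutation p = 0.057). Eno2 to Eno1 overlapped, with a difference of -0.23 (SE 0.13, exact permutation p = 0.14).

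**Figure D4:**
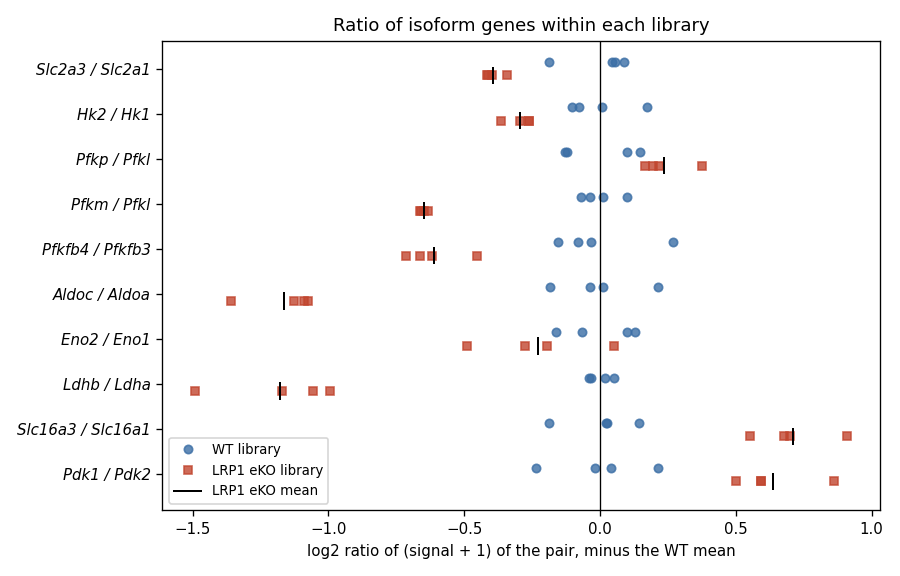
Log2 ratio of signal + 1 of the 2 genes of each pair in each library, shown as the difference from the WT mean, for WT libraries (circles) and LRP1 eKO libraries (squares, with their mean as a bar). Ldhb to Ldha and Aldoc to Aldoa lay about 1.2 below the WT mean, and Eno2 to Eno1 overlapped.

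Genes that surround these steps were taken from lists written by hand, whose counts stand beside the 19.0% of all genes tested that were higher and the 22.2% that were lower. Of 24 additional isoforms of the same enzymes and transporters, 10 had enough signal to be tested, with 2 higher, 2 lower and a median of 0.056. The rise of Slc2a10, a transporter of the same family, was lost without WT replicate 3 or any 1 LRP1 eKO library (adjusted p in limma from 0.057 to 0.081). Ldhd, a mitochondrial dehydrogenase of D-lactate, fell by 0.59 on the log2 scale (adjusted p in limma = 8.0e-05), and Adpgk, an ADP-dependent glucokinase, rose by 0.20 (adjusted p in limma = 0.0031). Slc2a2 (GLUT2), best known from hepatocytes and beta cells, had means of 0.217 (WT) and 0.186 (LRP1 eKO), and Pklr, the pyruvate kinase of liver and red cells, 0.147 and 0.117, both too low to be tested.

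Of 18 genes of gluconeogenesis and glycogen, 13 were tested, with 3 higher, 3 lower and a median of -0.040. The glycogen phosphorylases Pygb (brain form, from 32.5 to 23.55, adjusted p in limma = 9.3e-05) and Pygm (muscle form, from 2.16 to 0.927, adjusted p in limma = 0.0022) fell, the latter with the skeletal muscle markers. Gys1, the glycogen synthase of muscle and most tissues, rose from 16.4 to 20.8 (log2 fold change 0.32, adjusted p in limma = 3.3e-04). Pcx, the pyruvate carboxylase, fell from 11.5 to 8.585 (log2 fold change -0.38, adjusted p in limma = 3.2e-04), and Pgm2, a phosphoglucomutase, rose by 0.15 (adjusted p in limma = 0.011).

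Of 12 genes for the entry of pyruvate into mitochondria and the first steps of the citrate cycle, all tested, 1 was higher, 3 were lower and the median was -0.001. Mpc1, a subunit of the mitochondrial pyruvate carrier, had signals from 54.5 to 60.5 in WT and from 41.0 to 47.5 in LRP1 eKO libraries (log2 fold change -0.34, adjusted p in limma = 0.0016), while Mpc2, its partner subunit, differed by -0.084 (adjusted p in limma = 0.36). The calls of Cs, the citrate synthase, and Pdp1, a phosphatase that reactivates pyruvate dehydrogenase, were lost when single libraries were left out. Cs was not called without WT replicate 3 or any 1 LRP1 eKO library (adjusted p in limma from 0.052 to 0.084), nor Pdp1 without WT replicate 1 (0.050) or LRP1 eKO replicate 4 (0.058). Of 9 tested pentose phosphate genes outside the 34, Rpe, the ribulose phosphate epimerase, was higher (log2 fold change 0.23, adjusted p in limma = 0.013), 0 were lower in limma (2, Pgls and H6pd, at an unadjusted p under 0.05, and up to 1 with 1 library left out), and the median was -0.016.

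Of 26 regulators and hypoxia-responsive genes, 25 were tested, with 13 higher and 5 lower and a median of 0.23. With 1 library left out, from 10 to 13 were higher and from 3 to 5 were lower, and the lower count of 3 was found without LRP1 eKO replicate 1, 3 or 4. Myc, a transcription factor known to drive glycolytic genes, had signals of 14.2, 15.5, 16.2 and 14.9 in WT and 23.2, 24.1, 24.9 and 22.6 in LRP1 eKO replicates 1 to 4 (log2 fold change 0.61, SE 0.054, adjusted p in limma = 2.6e-05). Vegfa, the angiogenic growth factor induced by hypoxia, rose from 40.4 ± 3.86 to 70.1 ± 4.37 (SD, n = 4 each, log2 fold change 0.78, adjusted p in limma = 3.5e-05), and P4ha2, a collagen prolyl hydroxylase, rose by 0.52 (adjusted p in limma = 1.5e-05). Klf4, a flow-responsive factor in ECs, rose by 0.80 (adjusted p in limma = 9.8e-05) and Arrdc4, an arrestin that lowers glucose uptake, by 0.58 (adjusted p in limma = 2.9e-04). The list did not move one way. Egln3 and Ddit4, both known hypoxia-responsive genes, were lower, with log2 fold changes of -0.34 and -0.54 (adjusted p in limma = 4.1e-04 for each). Epas1 and Hif1a, which encode hypoxia-inducible factors, were higher (0.65 and 0.26, adjusted p in limma = 0.0035 and 0.026). The call of Hif1a was lost without LRP1 eKO replicate 1, 3 or 4 (adjusted p in limma from 0.054 to 0.069). Vhl, which marks these factors for degradation, was lower (-0.33, adjusted p in limma = 0.0012). Egln3, Ddit4, Epas1, Hif1a, Vhl, Mpc2, Pgls, H6pd, Slc2a2, Pklr, Eng and Cldn5 were named after their values were seen.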

How the data were processed

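RNA sequencing libraries (TruSeq) of liver ECs, 4 WT and 4 LRP1 eKO, were grouped by GEO's labels. The authors deposited 1 table, whose values are a signal after quantile normalization, with 22520 protein-coding genes. The study's methods name trimGalore, STAR, featureCounts with GENCODE, and edgeR, while the submitters' processing notes name TopHat2, Cufflinks and mm10, and neither describes this table, so its unit before normalization and its depth are unknown and no counting error could be given. Quantile normalization fixes the distribution of every library, so changes are relative to the other genes. The 11391 genes whose signal reached 1 in 4 or more of the 8 libraries were fitted with limma 3.58.1 in R 4.3.3 (mean-variance trend) on log2(signal + 1), which understates changes of low genes, and adjusted by the Benjamini-Hochberg method. The fit was tested on simulated data. Ratios were tested by exact two-sided permutation with Python 3.11.15 and SciPy 1.17.1. All 34 genes were named, together with up to 5 called genes of each surrounding list with the smallest adjusted p. Some genes of these lists are not reported here. The genes and lists were chosen with earlier results of these data known. All columns of libraries were used.

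Alternatives were other pseudocounts (0.1 and 5), no filter, a mean signal of at least 5, no trend, robust moderation, array weights, centring, a replicate block, stricter thresholds and leaving out libraries. Positions and shared runs of bases came from GENCODE M21 (GRCm38), promoters from RefSeq (GRCm38.p6).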

Additional observations from a re-analysis of the deposited data

Results flagged for a closer look

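Among 128 groups of 4 libraries (each of the 34 genes, the named surrounding genes and the ratios, by genotype), 9 held a library whose gap to its nearest neighbour, as a share of the group's whole range, exceeded Dixon's 95% critical value, and chance flags about 1 in 20 groups (6.4 here). WT replicate 4 accounted for 5 of them. It was lowest for Slc2a1 (44.6 against 48.3 for the next library, gap share 0.918), for Slc2a3 (33.5 against 43.0, gap share 0.892) and for Pdha1 (65.4 against 73.9, gap share 0.951), highest for Ldhb (340.5 against 299.9, gap share 0.836), and lowest for the log2 ratio of Slc2a3 to Slc2a1 (-0.40 against -0.17, gap share 0.83). LRP1 eKO replicate 2 was highest for Ldha (597.7 against 554.2, gap share 0.88). LRP1 eKO replicate 3 was highest for Vegfa (76.6 against 68.6, gap share 0.876). WT replicate 1 was lowest for Slc16a3 (30.7 against 34.1, gap share 0.906), and WT replicate 3 for Adpgk (21.85 against 22.45, gap share 0.933).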

How the results depend on the processing

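Of 611 alternative values of the 34 genes, 560 kept their direction and side of the threshold, 43 no longer passed, 4 newly passed and 4 changed sign, in 2 genes that were not called: Pdha1 (-0.023 with array weights, -0.007 without WT replicate 4 and -0.034 without both WT replicate 4 and LRP1 eKO replicate 2, from -0.007 to 0.066 with 1 library left out) and Taldo1 (-0.001 without WT replicate 2, from -0.001 to 0.042 with 1 library left out). Under these alternatives, all at an adjusted p of 0.05, 26 genes kept their call, and Slc2a3, Hk2, Pfkfb4, Tpi1, Eno2, Pdk2, Pdk3 and Pdk4 did not. With the 2-fold threshold added, 0 of the 34 genes were higher and 0 lower in limma, and 99 and 90 of all genes. At an adjusted p under 0.01, 14 of the 34 genes were higher and 6 lower, and 1201 and 1536 of all genes. With 1 library left out, 15 to 18 of the 34 genes were higher and 6 to 9 lower, over all genes 1715 to 2206 and 2025 to 2604, and the log2 fold change of Lrp1 was from -3.80 to -3.42. Without both WT replicate 4 and LRP1 eKO replicate 2, chosen after seeing the data, 17 were higher and 10 lower. The genotypes share replicate numbers, but deviations of same-numbered libraries correlated at -0.0856, -0.130, 0.178 and 0.0378, and not every library correlated best with its own number, so they share only a number. With the replicate block, 15 of the 34 genes were higher and 7 lower, and 1975 and 2210 of all genes. A paired test of the ratios cannot go below 0.12, nor a ratio test of 3 libraries against 4 below 0.057. The unknown depth limits statements on low genes such as Pfkfb4.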
